A study of Drosophila melanogaster with 24 samples.

Results

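The female-like gastrulae of the series were 8 of its 24 single Drosophila embryos, 4 homozygous for the Acf deletion AcfC and 4 wild type, and they were chosen by their msl-2 level so that embryo sex was matched between the genotypes. The series holds AcfC and wild-type embryos at Bownes stage 3, before zygotic genome activation, and at Bownes stage 8, the gastrula with an extending germ band. The labels do not give embryo sex. A stage 8 embryo was taken as female-like if msl-2 (FBgn0005616) was below 100 counts-per-million (CPM) of all counts in its library, which selected AcfC replicates 1, 4, 5 and 6 and wild-type replicates 1, 2, 3 and 4 out of 12 embryos. The comparison asked which RNAs differ in a gastrula that lacks the remodeler subunit ACF1 once the sex of the embryo is held fixed, on the X chromosome, on the autosomes and at low expression.

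The AcfC embryos came from flies in which CRISPR/Cas9 removed most of the Acf coding region and left the untranslated ends, with a dsRed eye marker put in for screening. The deletion was made in yw embryos that carried Cas9 and a lig mutation, and the founder males were crossed to w1118. The line was then backcrossed to yw and later to the wild-type strain OrR (Oregon-R) for 8 generations before RNA was collected. The wild-type embryos were OrR. All 8 were hand-staged single embryos grown at the same temperature and carry no other treatment, and each library is 1 animal. AcfC is 1 engineered line, so that the deletion and any DNA of the founder chromosome still linked to it cannot be told apart in this design.

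ACF1 is the large subunit that, with the ATPase ISWI, forms the nucleosome remodelers ACF and CHRAC, which slide nucleosomes and space them evenly in early fly embryos. In female flies the RNA-binding protein Sex-lethal (Sxl) blocks translation of msl-2 RNA and acts on its splicing. In males MSL2 is made and assembles, with the roX RNAs, the dosage compensation complex that raises transcription of the single X.

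The 20-base targeting sequences of the guides that name the ends of the AcfC deletion are shown because they define the tested allele. They were taken from the supplementary material of the study, the gene they target lies on 3R, and their position within it was not mapped here.
Acf1_crispr_LHS6: ttagcgcagcgtccacctaa
Acf1_crispr_RHS2: gggcgcctaccagctaaacg

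Each library had between 4213692 and 9103089 counts in AcfC and between 7448149 and 9895728 in wild type, of which 2030997 to 4860356 and 3595416 to 4931614 fell on protein-coding genes. Genes named as rRNA took 43.2 to 52.7% of the counts in AcfC and 46.9 to 48.6% in wild type. AcfC embryo 4 was the smallest library. In a principal component analysis of the 5335 coding genes that averaged 50 or more normalized counts, AcfC embryos 5 and 6 stood apart at -24.7 and -17.3 on the first component (33% of the variance), against -0.72 and 1.87 for AcfC embryos 1 and 4 and 4.2 to 15.8 for wild type. On the second component (26% of the variance) AcfC embryos 5 and 6 lay at opposite ends, at -15 and 23.7, so that they stood together on the first only. The labels use the same library indices again for replicates 4 to 6 as for replicates 1 to 3. AcfC has 1 female-like embryo in the first of these index sets and 3 in the second, and wild type has 3 and 1, so that genotype and index set are partly confounded. Values are listed in the order of replicates 1, 4, 5, 6 for AcfC and 1, 2, 3, 4 for wild type throughout.

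msl-2, Sxl and the Y-linked counts split the gastrulae cleanly. msl-2 stood at 39.1, 25.4, 29.2 and 35.7 CPM of all counts in the selected AcfC embryos and at 37.5, 34.2, 37.7 and 40.3 in the selected wild-type embryos. The embryos just above the threshold had 143 (AcfC) and 147 (wild type), so that the 100 CPM limit lies in a wide gap. Sxl (FBgn0264270), which the selection did not use, measured 626, 595, 611 and 517 CPM of all counts in AcfC females and 606, 581, 619 and 653 in wild-type females, and 154 to 191 in the male-like embryos of both genotypes. Genes of the Y chromosome summed to 0 to 8 counts in AcfC females and 4 to 5 in wild-type females, against 82 to 488 in the males. Sxl and the Y-linked counts, which the selection did not use, thus divided the 12 embryos in the same way as msl-2.

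**Figure D1:**
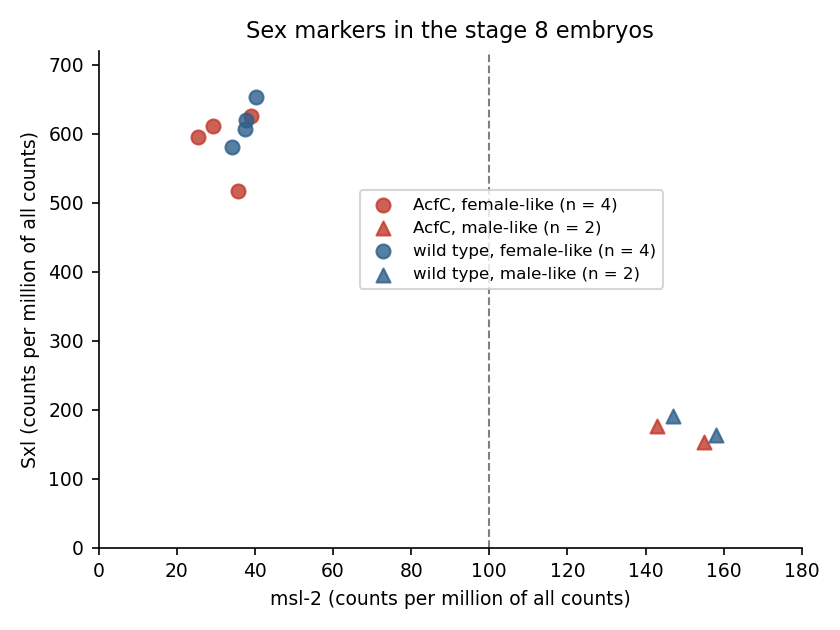
Each point is 1 stage 8 embryo, with msl-2 on the horizontal and Sxl on the vertical axis, both in CPM of all counts, circles female-like, triangles male-like, and the dashed line at the 100 CPM limit. The 8 female-like embryos lie at 25.4 to 40.3 for msl-2 and 517 to 653 for Sxl, and the 4 male-like embryos at 143 to 158 and 154 to 191.

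Within females the Sxl values of the genotypes overlapped, with a log2 fold change of -0.03 (SE 0.0713) and an edgeR adjusted p of 0.882. The noncoding RNA roX1 (FBgn0019661, chromosome X, overlapping ec) had 1193, 1059, 1555 and 987 CPM of all counts in AcfC and 841, 944, 864 and 990 in wild type, with means of 1200 ± 252 and 910 ± 69.5 (SD, n = 4 each). AcfC embryo 6 fell just below the highest wild-type embryo, so that the groups overlapped. In an edgeR fit of the 10457 genes of all kinds that passed the filter, roX1 differed by 0.42 on the log2 scale (SE 0.14) with an adjusted p of 0.26, and roX2, at about 1 CPM, had an adjusted p of 0.542. In the male-like embryos roX1 was lower than in every female-like embryo, at 825 and 714 CPM of all counts in AcfC and 767 and 675 in wild type. The sexes overlapped for roX2, with 3.56 and 3.19 in AcfC males, 1.59 and 2.82 in wild-type males and 2.22 in AcfC female 5.

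The deleted gene checks the genotype labels. From here on CPM is taken over the protein-coding counts, after TMM scaling (trimmed mean of M-values). Acf (FBgn0027620, 3R from 31793981 to 31799799, plus strand, BDGP6.54, overlapping CG42233) had 40.3, 40.7, 51.1 and 43.3 CPM in AcfC and 459, 489, 481 and 466 CPM in wild type. The 4 AcfC embryos were within a narrow band far below the 4 wild-type embryos. Acf fell by 3.43 on the log2 scale (SE 0.0987, adjusted p 3.65e-08), which left 9.28% of the wild-type mean in the reads assigned to the gene. The libraries do not keep strand, so that reads of the remaining untranslated ends and of CG42233 are not separated. Of the 8 genes listed for other ISWI complex subunits, none passed the test, and their median log2 fold change was -0.06 beside 0.02 for all genes tested. Iswi itself had 1130, 1170, 1120 and 1110 CPM in AcfC and 1030, 1070, 1040 and 1020 in wild type, with no overlap and a log2 fold change of 0.13 (adjusted p 0.378).

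Of 9363 protein-coding genes that were counted in at least 5 of the 8 embryos, 115 (1.23%) passed an adjusted p of 0.1 in the edgeR quasi-likelihood test. AcfC females were higher in 68 (0.726%) and lower in 47 (0.502%). At an unadjusted p under 0.05 there were 1281. The changes were mostly moderate: the median size was 0.92 on the log2 scale, and 52 genes exceeded 1, 33 of them higher and 19 lower in AcfC. Values of the genotypes did not overlap in 112 of the 115 genes, beside 787 (8.41%) of all genes tested.

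The number of calls rested on single libraries. It was 11 without wild-type embryo 4, 16 without wild-type embryo 1, 19 without wild-type embryo 3, 38 without AcfC embryo 5 and 58 without wild-type embryo 2, and up to 144 without AcfC embryo 4. The calls with an adjusted p under 0.1 in every one of the 8 fits that leave out 1 embryo, among the genes named here by rule, were Acf, faf, rhi, Ubr3 and CG32625. CG34353 lost its call only without wild-type embryo 1 (adjusted p 0.109), and CG3097 and GstZ1 only without wild-type embryo 4 (0.133 and 0.121). The call of zyd was lost in 2 of the 8 fits, those of Notum, Orct, RyR, CG11263, r, jdp and stops in 3, those of Rcd2 and CG33494 in 4, those of Orct2 and CG7920 in 5, those of HGTX, Corin, CG1503, BoYb and Rgk3 in 6, and those of Mrp5, CG31268, CG2993, CG13375, GstE1 and mof in 7. No called gene named by rule turned its direction in them, and genes named after their values were seen were not followed through these fits. With index set as a term 11 genes were called, and of the genes named by rule they included Acf, CG34353, faf, rhi, Ubr3, GstZ1, RyR and CG11263.

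Among genes that averaged 10 or more normalized counts, the largest called rise was that of CG34353 (FBgn0085382, 3R, a long gene with Or98a inside its span). It had 99, 9, 61 and 21 counts in AcfC and 3, 2, 4 and 0 in wild type, a log2 fold change of 4.52 (SE 0.654, adjusted p 0.0245). As a ratio of the scaled counts it was 27.1-fold higher, with a 95% exact interval from 14 to 60.3 that covers counting error only. Every AcfC embryo was above every wild-type embryo, which the rule that named the largest changes required.

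Notum (FBgn0044028, 3L, overlapping mir-4941) encodes a secreted enzyme that strips the lipid from Wnt proteins and so limits their signal. It measured 84.5, 94.1, 267 and 316 CPM in AcfC and 36.8, 37.8, 33.6 and 19.1 CPM in wild type. AcfC embryos 5 and 6, the pair that stands apart on the first component, were about as far above AcfC embryos 1 and 4 as those were above wild type. The rise was 2.58 on the log2 scale (SE 0.435, adjusted p 0.052). HGTX (FBgn0040318, 3L), the Nkx6 homeobox gene of motor neurons, showed the same split, with 6.5, 11.1, 49.1 and 30.2 CPM in AcfC and 4.2, 4.04, 4.23 and 2.24 in wild type. Its log2 fold change was 2.71 (SE 0.585, adjusted p 0.085) and was 1.18 (adjusted p 0.252) without AcfC embryos 5 and 6.

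Neighbouring organic cation transporter genes on 3R rose together. Orct2 (FBgn0086365) had 49.7, 16.1, 25.5 and 68.3 CPM in AcfC and 10.2, 12.7, 8.46 and 10.2 in wild type, and Orct (FBgn0019952) had 14.7, 8.05, 14.9 and 22.5 in AcfC and 4.4, 4.04, 3.56 and 3.48 in wild type. AcfC embryo 4 was the lowest and AcfC embryo 6 the highest of the mutants for both. Each rose by 1.96 (adjusted p 0.0661 and 0.0355), and reads shared between these related genes would count toward either one.

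The other large rises were Rcd2 (3.08, adjusted p 0.056), named for the loss of centrosomal Cnn dots when it is depleted in fly cells, CG33494 (2.80, adjusted p 0.0527) and Corin (2.13, adjusted p 0.0807), a membrane-bound serine protease. Their AcfC means were 10.3 ± 6.81, 6.84 ± 3.71 and 19.1 ± 8.96 CPM, against 1.18 ± 0.401, 0.937 ± 0.0696 and 4.38 ± 2.62 CPM in wild type (SD, n = 4 each). None of the 3 overlapped between the genotypes, which the same rule required.

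**Figure D2:**
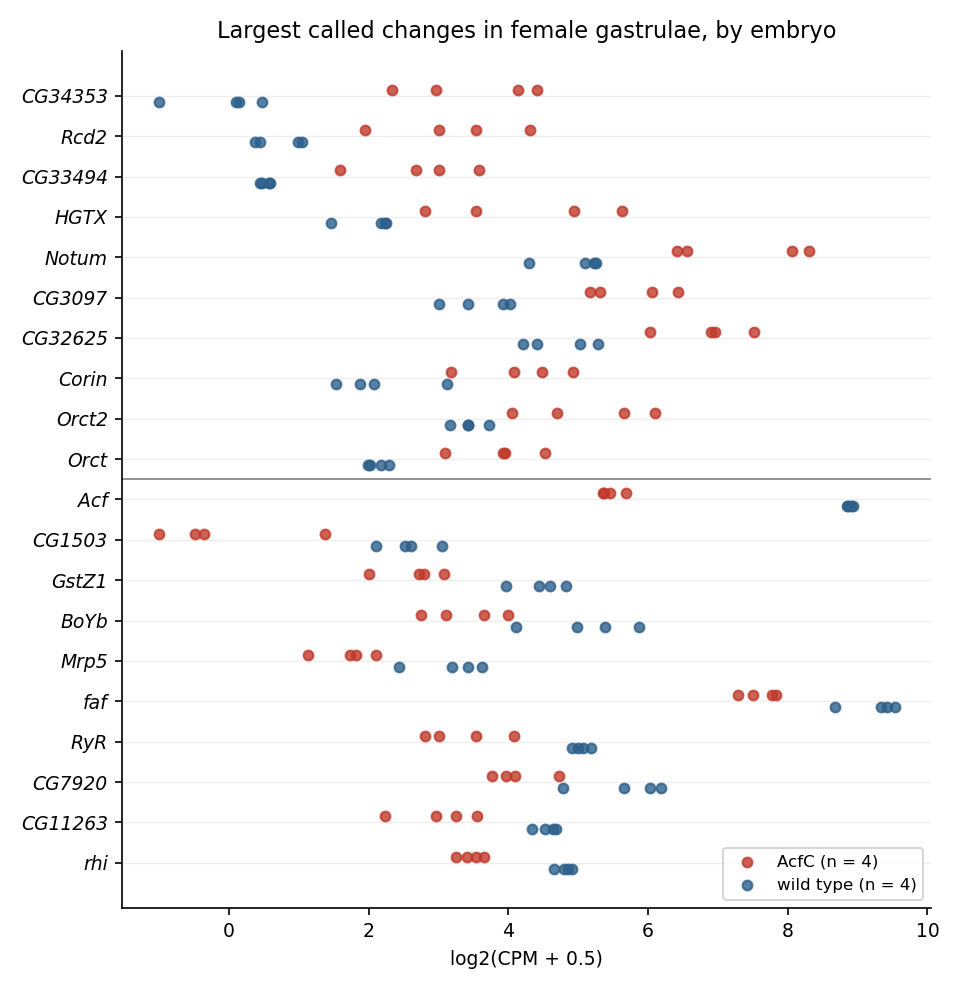
Each point is 1 female-like embryo, on a horizontal axis of log2(CPM + 0.5), AcfC in red above wild type in blue for every gene, with the 10 largest called rises above the line and the 10 largest called falls below it. Every gene shown separates the genotypes because the rule that chose these genes required it. The AcfC points of Notum and HGTX fall into a lower and a higher pair.

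Besides Acf, the fall with the lowest adjusted p among the named genes was shared by fat facets and rhino. faf (FBgn0005632, 3R from 31777020 to 31790681, overlapping Mccc1) encodes a deubiquitinating enzyme, and its span ends 3.3 kb before Acf begins. It measured 228, 180, 155 and 219 CPM in AcfC and 682, 410, 648 and 739 CPM in wild type. The lowest wild-type embryo was well above the highest AcfC embryo. The fall was 1.66 on the log2 scale (SE 0.185, adjusted p 0.00797). In the stage 3 embryos the log2 fold change of faf was 0.01, beside -2.40 for Acf.

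rhi (FBgn0004400, 2R, overlapping CG10936) encodes the HP1 relative that marks piRNA source loci in the germline. It had 12, 11.1, 10.1 and 9.01 CPM in AcfC and 29.6, 28.3, 27.2 and 24.6 CPM in wild type. The spread within each genotype was small beside the gap between them, and the log2 fold change was -1.37 (SE 0.154, adjusted p 0.00797). BoYb (FBgn0037205, 3L), a Tudor-domain helicase of the same small-RNA pathway, had 15.5, 12.1, 8.13 and 6.24 CPM in AcfC and 31.2, 16.7, 41.2 and 57.9 in wild type. Wild-type embryo 2 came near the mutants, and the fall was 1.79 (SE 0.382, adjusted p 0.0839).

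RyR (FBgn0011286, 2R), the calcium release channel of internal membranes, had 6.5, 7.55, 16.5 and 11.1 CPM in AcfC females and 29.6, 31.4, 32.9 and 35.8 in wild-type females, a fall of 1.63 (SE 0.259, adjusted p 0.0388). In the male-like embryos its log2 fold change was 0.80. GstZ1 (FBgn0037696, 3R), a glutathione transferase, had 6.08, 3.52, 6.45 and 7.97 CPM in AcfC and 15.2, 23.7, 21.1 and 27.8 in wild type. Its fall of 1.83 had an adjusted p of 0.0245. Mrp5, an ABC transporter, CG7920 and CG11263 fell by 1.67, 1.59 and 1.55 with adjusted p of 0.088, 0.0661 and 0.0527. CG1503 on the X had 1, 0, 1 and 6 counts in AcfC and 28, 27, 17 and 21 in wild type, a scaled ratio of 9.04-fold lower (95% counting interval 4.4 to 21.6, adjusted p 0.0839).

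Some of the remaining called genes were sorted by what they are known to do after their values were seen, and the groups that follow are descriptions of called genes, with no test of any group. Of proteins that act in the piRNA pathway or carry Tudor domains, rhi, BoYb, SoYb, tud and Tudor-SN were called lower in AcfC. A list of 17 further genes of the piRNA pathway was drawn up after the values were seen and leaves out these 5. That 0 of the 17 were called was therefore set by the list. It gives no share of the pathway to put beside the 1.23% called of all genes tested. The lowest edgeR adjusted p of the 17 was 0.321. Their log2 fold changes ran from -0.74 for armi to 0.41 for squ, with 0.04 for aub and 0.02 for vas. SoYb (2L, overlapping CG31875) had 38.4, 68.9, 46 and 34 CPM in AcfC and 85, 75.6, 91.5 and 115 in wild type, a fall of 0.99. tud, the founding Tudor gene of the germ plasm, had 271, 255, 289 and 261 CPM in AcfC and 350, 406, 351 and 355 in wild type, a fall of 0.44. Tudor-SN fell by 0.36. The 5 called genes also had a negative log2 fold change in the male-like embryos, between -0.31 and -1.16.

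Called genes of signal transduction went in both directions. Tsc1, which restrains the growth kinase TOR, fell by 0.66, and rictor, a subunit of TOR complex 2, rose by 0.45. The EGF receptor ligands spi and vn rose by 0.34 and 0.86 and pnt, the ETS factor downstream of that receptor, by 0.56. Beside Notum, the Wnt ligand gene wntD rose by 0.90 and the receptor gene fz by 0.45. Pvr, the PDGF and VEGF receptor, had 27.5, 25.7, 58.1 and 60.7 CPM in AcfC and 14, 6.35, 16.7 and 12.7 in wild type, a rise of 1.78, again with AcfC embryos 5 and 6 as the higher pair. jeb, a ligand of the kinase Alk, rose by 1.94, Sulf1, an enzyme that trims heparan sulfate, by 0.58, and H, the corepressor of Notch targets, by 0.52.

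Called genes of DNA replication, repair and mitosis likewise lay on both sides. PolZ1, the catalytic subunit of the translesion polymerase zeta, had 38.8, 38.7, 53.9 and 46.8 CPM in AcfC and 72.8, 66.9, 72.8 and 66.8 in wild type, a fall of 0.65 (SE 0.126, adjusted p 0.0661). RnrL, the large subunit of ribonucleotide reductase, had 155, 147, 154 and 193 CPM in AcfC and 86.8, 99.2, 99.5 and 91.4 in wild type, a rise of 0.79 (SE 0.109, adjusted p 0.0245). rod, a kinetochore component of the spindle checkpoint, had 147, 157, 137 and 203 CPM in AcfC and 79.8, 77, 86.8 and 69.6 in wild type, a rise of 1.04 (SE 0.134, adjusted p 0.0187). dpa, which encodes the helicase subunit Mcm4, mars, Msh6 and Klp3A rose by 0.35, 0.44, 0.49 and 0.34.

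Idgf2 (FBgn0020415, 2L, overlapping CG5888), a secreted chitinase-like growth factor, had the lowest adjusted p of all rises and was named after its values were seen. It had 188, 205, 169 and 142 CPM in AcfC and 67, 73, 45 and 65.8 in wild type, a rise of 1.49 (SE 0.163, adjusted p 0.00797). It was also higher in AcfC by 1.91 in the male-like embryos and by 1.69 at stage 3. Of chromatin and transcription factors, IntS3 of the Integrator fell by 1.02, the histone H3 lysine methyltransferase Set2 by 0.54, Taf1 of TFIID by 0.43 and the splicing factor Cdc5 by 0.36, while yem, a partner of the histone chaperone Hira, rose by 0.51. Among genes of the cytoskeleton and adhesion, kst, Nrg, cindr and Zasp52 rose by 0.84, 0.75, 0.85 and 0.93, and Dys, the fly dystrophin, fell by 1.07.

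Several called genes lie near the deletion. Within 2 Mb of Acf, and with Acf itself among them, 11 of 172 tested genes were called (6.4%), 5 higher and 6 lower in AcfC, beside 1.23% of all genes. Nearest to Acf were faf, then FeCH, the last enzyme of heme synthesis, 10.7 kb away (-0.63), and heph, an RNA-binding protein of the PTB family, 47.2 kb away (-0.40). CG1792 at 176.1 kb and rod at 205.7 kb rose by 1.05 and 1.04, and PNPase at 388.5 kb fell by 1.25. The others were stops, cindr, jdp and CG7920, between 624.9 and 1778.7 kb away. All 11 had the same direction in the male-like embryos.

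On the X chromosome AcfC females were higher more often than lower. Of 1602 X-linked genes 28 (1.75%) were called, 21 higher and 7 lower, and of 7761 autosomal genes 87 (1.12%) were called, 47 higher and 40 lower. The median log2 fold change was 0.0858 on the X and 0.0043 on the autosomes, and 61.7% of X-linked genes had a positive sign beside 50.6% of autosomal genes. By arm, the autosomal medians were 0.0155 on 2L, -0.00285 on 2R, 0.0199 on 3L and -0.014 on 3R. The small chromosome 4 had a median of 0.14 over 78 genes with no call, and -0.308 in the males. In females 71.8% of its genes had a positive sign, more than on the X. Among the 1602 X-linked genes, 111 were higher and 41 lower in AcfC without overlap between the genotypes. Among the 7761 autosomal genes these were 302 and 333, with 11 and 0 of them on chromosome 4. Over all genes tested 787 (8.41%) did not overlap, 413 higher and 374 lower.

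The X-linked gene with the lowest adjusted p was Ubr3 (FBgn0260970, overlapping CG15332 and orion), which encodes a ubiquitin ligase. It had 550, 486, 555 and 468 CPM in AcfC females and 327, 355, 323 and 317 in wild-type females. The groups were far apart, and the rise was 0.64 (SE 0.0824, adjusted p 0.0187). In the male-like embryos the log2 fold change of Ubr3 was 0.14.

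CG3097 (FBgn0029804, overlapping CG42699) had 35.4, 39.2, 65.9 and 85.6 CPM in AcfC and 15.8, 7.5, 14.7 and 10.2 in wild type, a rise of 2.21 (adjusted p 0.0245), with AcfC embryos 5 and 6 again highest. CG32625 (FBgn0052625) had 119, 124, 182 and 64.8 CPM in AcfC and 32, 20.8, 18 and 38.3 in wild type, a rise of 2.17 (adjusted p 0.0252). zyd, a calcium exchanger of glia, had 22.4, 23.1, 23.8 and 29.8 CPM in AcfC and 11.4, 7.79, 9.79 and 13.7 in wild type, a rise of 1.21 (adjusted p 0.0478). These 3 genes separated the genotypes without overlap and were also higher in AcfC males, by 2.92, 1.64 and 0.69.

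rudimentary (r, FBgn0003189), the enzyme of the first steps of pyrimidine synthesis, went the other way, with 106, 98.1, 103 and 98.4 CPM in AcfC and 152, 140, 160 and 142 in wild type. The fall was 0.55 (SE 0.0859, adjusted p 0.0366). mof, the acetyltransferase of the dosage compensation complex, lies on the X and was the called member of that list. It had 44, 62.9, 55 and 51.3 CPM in AcfC females and 36.8, 36.9, 36.9 and 33 in wild-type females. The rise of mof was 0.56 (adjusted p 0.0969), with -0.17 in males. Apart from msl-2, which chose the embryos, the other tested members msl-1, msl-3, mle and Clamp had log2 fold changes of 0.18, 0.11, 0.15 and 0.19 and did not pass the test. The median over all 6 tested members, with msl-2 among them, was 0.16.

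Summed over the X-linked genes, CPM was 183678, 181918, 186613 and 170672 in AcfC females and 170280, 182202, 167793 and 169132 in wild-type females. AcfC embryo 6 lay among the wild-type values and wild-type embryo 2 among the mutant ones. The difference of the means was 8370 CPM, with a two-sided exact permutation p of 0.0857 over 70 splits and 0.429 after adjustment over 5 tests (smallest possible p 0.0286). It was 10300 within the first index set, with 1 AcfC embryo and 3 wild-type embryos, and 10600 within the second, with 3 and 1. Each of these values thus rests on a single embryo of 1 genotype.

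A measure that gives each gene the same weight separated the genotypes, and it was added after the values above had been seen. It is the median log2 level of the X-linked genes of an embryo minus that of its autosomal genes, each gene taken relative to its mean over the 8 embryos. It was 0.0226, 0.0253, 0.0877 and 0.0142 in AcfC females and -0.042, -0.000215, -0.0536 and -0.0648 in wild-type females. All 4 mutants were above all 4 wild-type embryos. The means were 0.0374 ± 0.0338 and -0.0402 ± 0.0282 (SD, n = 4 each). The difference of 0.0776 had a two-sided exact permutation p of 0.0286, the smallest that 70 splits can give, and 0.0429 adjusted over 3 such tests. Another of the 3 is the same measure on quartiles 2 to 4, which shares most of its genes. The last is the median of quartile 1 minus that of quartile 4 in each embryo. It differed by 0.11 between the genotypes, with an exact permutation p of 0.629. The 5 tests of summed CPM are not in this adjustment, so that it does not cover all the tests made. The X-linked minus autosomal difference ranged from 0.0614 to 0.0919 when single embryos were left out. Its exact permutation p was 0.0571 without any one of AcfC embryos 1, 4 and 5. It was 0.0643 without AcfC embryos 5 and 6, with a p of 0.0667 in the same exact test, the smallest that can be reached there. Quartiles 2 to 4 of expression alone gave 0.0812 (exact permutation p 0.0286). In the male-like embryos the same measure, taken relative to the mean over those 4, was -0.00283 and -0.0241 in AcfC and 0.0267 and -0.012 in wild type, a difference of -0.0208. The male values of the genotypes overlapped, and the difference between the sexes was not tested.

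**Figure D3:**
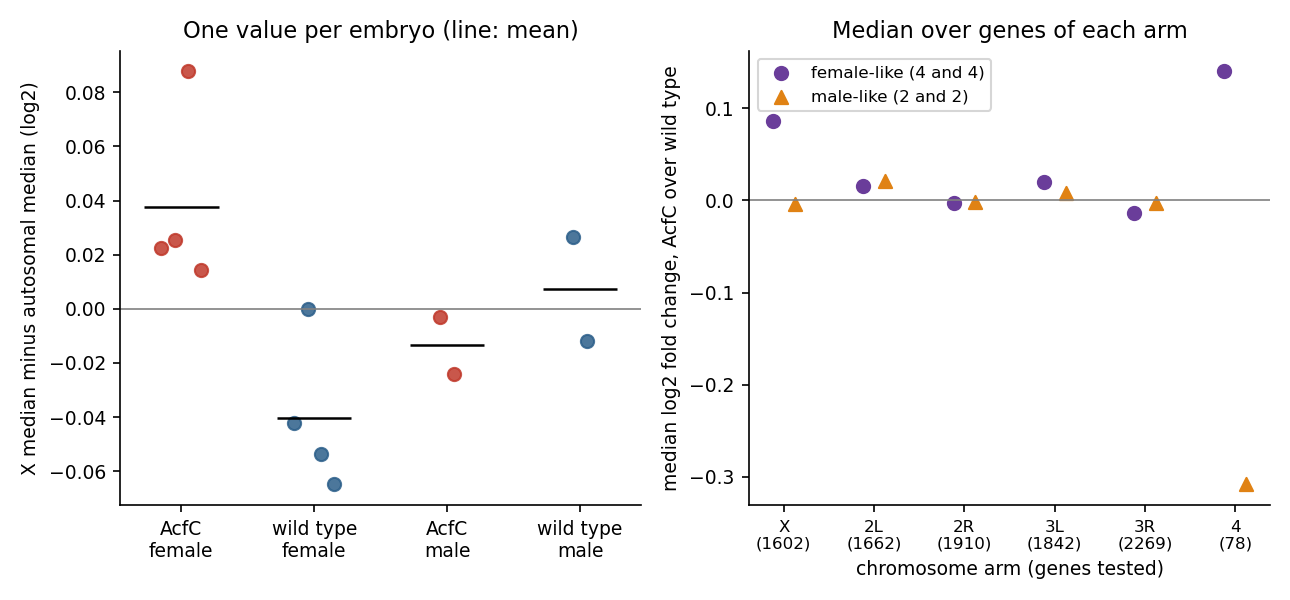
Left, each point is 1 stage 8 embryo, the median log2 level of X-linked genes minus that of autosomal genes, with a line at the group mean. Right, the median log2 fold change of AcfC over wild type by chromosome arm in female-like (circles) and male-like (triangles) embryos. The 4 AcfC females lie above the 4 wild-type females, and among the larger arms the X has the highest female median at 0.0858, with -0.00374 in males.

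Low expression was examined in quartiles of the mean normalized count over the 8 embryos. Quartile 1 held 2340 genes with means from 0.548 to 10.5 counts, and its median log2 fold change was 0.26, with 62.4% of the genes positive. The medians of quartiles 2, 3 and 4 were 0.013, -0.0212 and 0.00308. A loess curve of log2 fold change on expression ran at 0.291 for genes of 1 count, 0.244 at 4, 0.202 at 8, 0.0683 at 32 and 0.00589 at 256. On the male-like embryos the curve ran at 0.514, 0.299, 0.196, 0.0582 and -0.0147 at the same points.

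In females this shift rested on AcfC embryos 5 and 6. Quartile 1 genes summed to 2110, 1999, 3028 and 3490 CPM in AcfC and 2322, 2024, 2387 and 2325 CPM in wild type. AcfC embryo 1 lay within the wild-type range, AcfC embryo 4 just below it, and AcfC embryos 5 and 6 above it. The means were 2657 ± 722 and 2264 ± 163 (SD, n = 4 each), and the difference of 393 had a two-sided exact permutation p of 0.4, or 0.667 after adjustment over 5 tests. Without AcfC embryos 5 and 6 the difference was -194 CPM and the median fold change of the quartile -0.167, so that both turned round, a setting chosen after seeing the data. Of the 2 mutants left, AcfC embryo 4, the smallest library, had a quartile 1 median of -0.299 relative to the wild-type mean. AcfC embryo 1 had 0.0606. AcfC embryos 5 and 6 are both in the second index set. The CPM difference was -134 in the first set, with 1 AcfC embryo and 3 wild-type embryos, and 514 in the second, with 3 and 1. With index set as a term the median of quartile 1 was 0.133. The share of quartile 1 genes with any count was 89.7, 68.1, 88 and 90.8% in AcfC and 92.3, 81.4, 91.4 and 89.2% in wild type, and AcfC embryos 5 and 6 were within the wild-type range on this measure. In the male-like embryos the quartile 1 median was 0.197, and the same genes summed to 2533 and 2658 CPM in AcfC and 1912 and 2450 CPM in wild type.

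**Figure D4:**
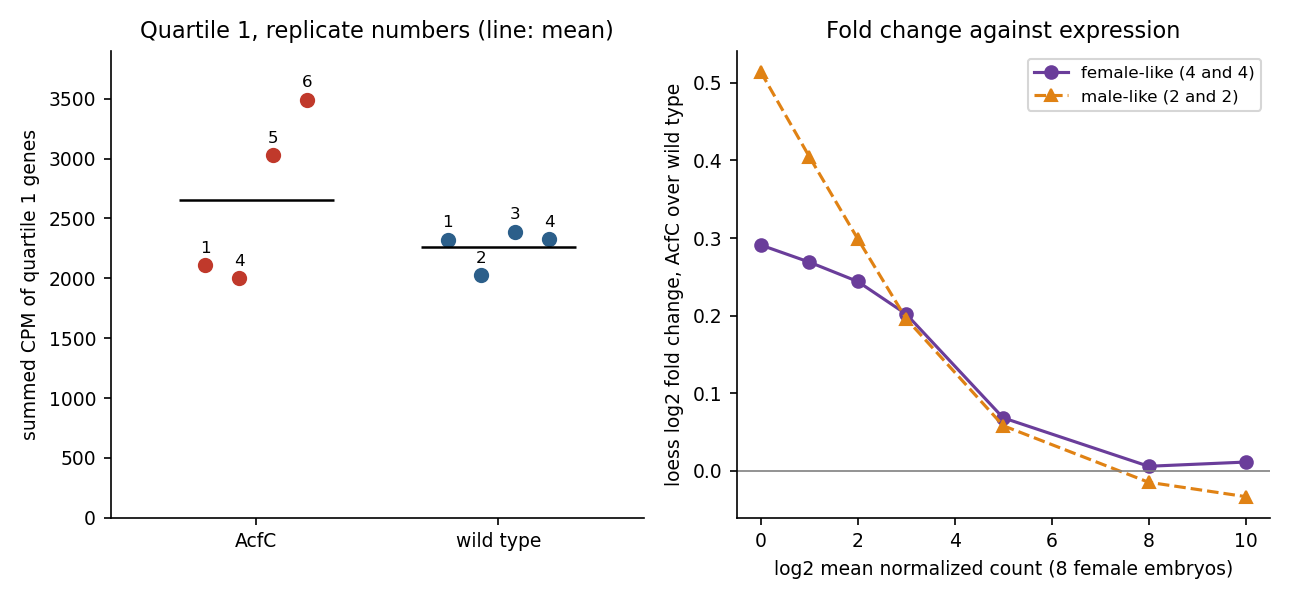
Left, summed CPM of the 2340 quartile 1 genes in each female-like embryo, numbered by replicate, with a line at the group mean. Right, the loess log2 fold change of AcfC over wild type against log2 mean normalized count, females solid and males dashed. AcfC embryos 5 and 6 lie at 3028 and 3490 and the other 6 embryos between 1999 and 2387, and the curve runs from 0.291 at 1 count to 0.00589 at 256 counts in females.

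X-linked and autosomal genes of quartile 1 had medians of 0.215 and 0.269. In quartiles 2, 3 and 4 the X-linked medians were 0.105, 0.0526 and 0.0638, and the autosomal ones -0.00367, -0.0372 and -0.00871. The X median was thus below that of the autosomes in quartile 1 and above it in each of the 3 upper quartiles.

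Of the 2340 quartile 1 genes 3 were called higher and 3 lower, or 0.256% beside 1.23% of all genes tested. jdp (FBgn0027654, 3R), a J domain cochaperone, had 23, 10, 4 and 26 counts in AcfC and 1, 1, 1 and 1 in wild type, a scaled ratio of 20.3-fold (95% counting interval 7.53 to 76.6, edgeR adjusted p 0.0478). stops (FBgn0086704, 3R, overlapping Gycbeta100B), a SOCS box protein of photoreceptors, had 17, 7, 20 and 16 counts in AcfC and 3, 2, 0 and 3 in wild type, 9.65-fold higher (4.59 to 23.4, adjusted p 0.0527). Both lie within 2 Mb of Acf, and neither overlapped between the genotypes. In CPM, AcfC embryo 5 was the lowest mutant for jdp (1.12) and the highest for stops (5.61). CG31268 had 13, 3, 13 and 14 counts in AcfC and 4, 2, 2 and 1 in wild type, 6.14-fold higher (2.95 to 14.3, adjusted p 0.0661).

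Rgk3 (FBgn0085426, 2R), a small GTPase of the RGK family, had 2, 1, 1 and 1 counts in AcfC and 17, 19, 5 and 26 in wild type, 10.4-fold lower (4.25 to 33.1, adjusted p 0.0661). CG2993 and CG13375 were 5.15-fold (2.43 to 12.5, adjusted p 0.0668) and 5.05-fold (2.38 to 12.3, adjusted p 0.0995) lower. CG2993 had 1 to 3 counts per AcfC embryo and 11 to 15 per wild-type embryo, and CG13375 had 1 to 3 and 10 to 16.

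Lists of genes for tissues and functions were summed in each embryo, and apart from mof and the detoxification genes GstZ1 and GstE1 none of their members was called. GstE1 fell by 0.98 (adjusted p 0.0926), and these were 2 of 90 detoxification genes tested (2.22%, beside 1.23% of all genes), whose median was 0.03. The 13 neuroectoderm and neuroblast genes all had positive log2 fold changes, beside 52.5% of all genes tested. Their median was 0.32 beside 0.02 for all genes. They summed to 2080, 1840, 2910 and 2120 CPM in AcfC and 1750, 1790, 1750 and 1650 in wild type, without overlap. Of all the lists summed, only this one and the cuticle protein genes did not overlap, beside 8.41% of single genes tested. D, a Sox factor, was 0.57 higher with an adjusted p of 0.153, and scrt, a zinc finger factor of neural precursors, had 21, 2.52, 12.6 and 91.8 CPM in AcfC and 9.8, 1.15, 6.68 and 4.97 in wild type (adjusted p 0.253).

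Single embryos dominated other lists. Mesoderm genes summed to 4060 CPM in AcfC embryo 5, with 2550 to 2850 in the other mutants and 2290 to 2750 in wild type, and dorsal ectoderm and amnioserosa genes to 821 in AcfC embryo 5, with 1730 to 1900 in the other mutants and 1630 to 2200 in wild type. The medians of these lists were 0.26 and -0.05. The 10 gut and hemocyte genes had a median of 0.68, all positive, beside 52.5% of all genes tested. They summed to 1600 in AcfC embryo 4 and 790 to 971 in the other mutants, with 802 to 876 in wild type. Pole cell genes summed to 1570 to 1870 in AcfC and 1630 to 1910 in wild type.

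The 7 tested heat shock genes had a median of 1.45, all positive, beside 52.5% of all genes tested. Hsp68 (overlapping CG6000) had 2.94, 294, 4.49 and 5.2 CPM in AcfC and 1.2, 2.6, 1.56 and 0.994 in wild type, so that AcfC embryo 4 carried nearly all of it (adjusted p 0.194). Hsp23 had 212, 324, 118 and 125 CPM in AcfC and 113, 28.8, 32.7 and 108 in wild type (adjusted p 0.238). In males the log2 fold change of Hsp68 was -1.94. The part of the heat shock, tissue and depth differences of single AcfC embryos in the called genes was not tested.

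Gene families that act after embryogenesis had few tested members. Of 88 cuticle protein genes 25 were tested, with a median of 0.40 and sums of 18.2, 19.6, 31.4 and 20.8 CPM in AcfC and 14.4, 17.9, 15.8 and 17.6 in wild type, which do not overlap. Of 179 chemoreceptor genes 45 were tested, with a median of 0.26. Tracheal and salivary placode genes had a median of 0.51, segment polarity genes 0.09, pole cell genes 0.06, Hox genes 0.02 and sex determination genes 0.01. The 82 cytosolic ribosomal protein genes were at 0.03 and the 35 proteasome genes at -0.10, early zygotic genes at -0.07, maternal RNAs at -0.10, antimicrobial peptide genes at 0.05 over 3 genes, and egg shell and yolk protein genes at -0.29 over 6.

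The male-like gastrulae share no embryo with the females and gave the same direction for most called genes. Of the 114 called genes other than Acf, 105 (92.1%) had the same sign in the 2 AcfC and 2 wild-type males, beside 62.0% of all genes tested. The index sets lie the other way round in males, where both AcfC embryos are in the first set and both wild-type embryos in the second. Of the 114, 68 had an unadjusted p under 0.05 in males in the same direction and 0 in the opposite one, beside 650 and 100 of all 9363 genes tested, although the male edgeR fit on its own called 6 genes. By location, 22 of 28 X-linked and 83 of 86 autosomal called genes kept their sign.

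The 9 genes with the other sign in males were RyR, unc-13-4A, Dad, Cht6, spdi, alpha-Man-Ia, su(sable), Klp3A and mof, and all but RyR were higher in AcfC females. Dad, the inhibitory Smad of Dpp signalling, had 24.7, 27.7, 13.5 and 28.1 CPM in AcfC females and 7.6, 3.17, 10.2 and 6.71 in wild-type females (1.73), with -0.65 in males. unc-13-4A had 11.7, 8.05, 26.4 and 16.3 CPM in AcfC females and 4.2, 4.33, 4.67 and 4.72 in wild-type females (1.81), with -0.87 in males. The genotype-by-sex interaction in the 12 stage 8 embryos called 0 of 9448 genes (0%) in edgeR, with 330 at an unadjusted p under 0.05, and 1 in DESeq2.

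**Figure D5:**
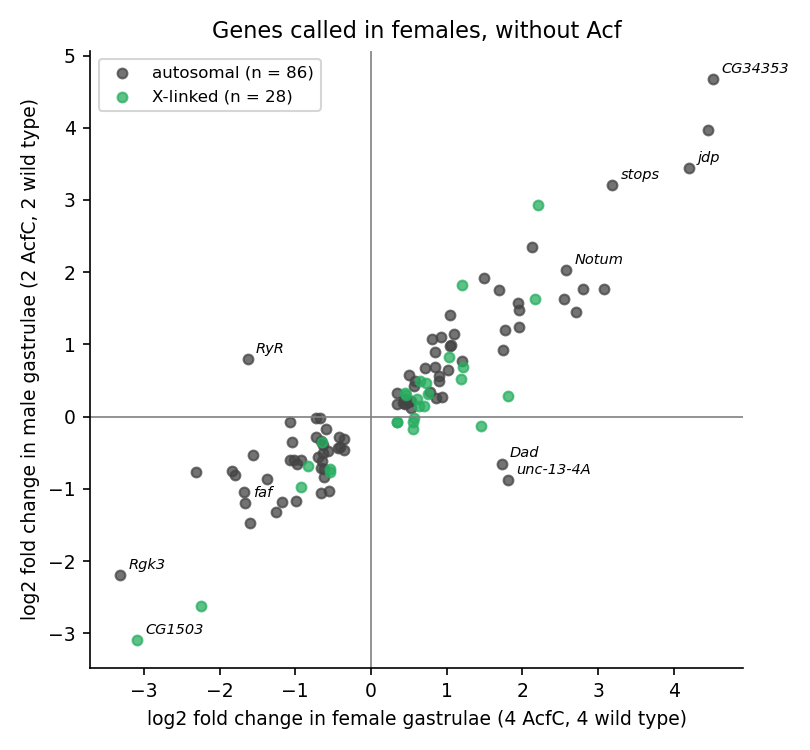
Each point is 1 gene called in females other than Acf (86 autosomal in grey, 28 X-linked in green), with the log2 fold change of AcfC over wild type in females on the horizontal and in males on the vertical axis. Most points, 105 of 114, lie in the quadrants of equal sign, and RyR, Dad and unc-13-4A are named among the exceptions.

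At stage 3, before zygotic transcription, 104 of the called genes other than Acf could be tested, and 79 (76.0%) had the same sign, beside 55.3% of all genes tested in both. Those embryos are not sorted by sex. At stage 3 the log2 fold change of Idgf2 was 1.69 (edgeR adjusted p 0.000221) and that of Pvr 2.32, which did not pass the test (adjusted p 0.113). The gene stops had the other sign at stage 3 (-4.64) and passed the test there (edgeR adjusted p 0.000229). The position of the called genes in normal development was read from embryos outside the female comparison, the 2 wild-type males of stage 8 set against the 6 wild-type embryos of stage 3. Only genes with an adjusted p under 0.1 between the stages were counted as higher or lower, so that the shares depend on the power of this small comparison. Of the 68 genes higher in AcfC females, 31 (45.6%) were higher and 26 (38.2%) lower at stage 8 than at stage 3. Of the 46 lower genes without Acf, 11 (23.9%) were higher and 30 (65.2%) lower at stage 8. Over all genes tested these shares were 48.8% higher and 33.0% lower.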

How the data were processed

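Single-embryo RNA was depleted of rRNA with a human/mouse/rat kit and made into nondirectional paired-end libraries. The authors mapped reads with STAR 2.5.0a and deposited a table of raw, unscaled read counts that covers 17370 genes and 24 embryos. ERCC RNA was added, but scaling to it was not used here. Groups and replicate numbers came from the labels, and the sex class came from msl-2 below or above 100 CPM of all counts. The members and lists were chosen with earlier results of these data known.

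Biotypes and positions came from the Ensembl annotation of BDGP6.54, where 17155 of the genes were found and 13728 are protein-coding. Protein-coding genes counted in at least 5 of the 8 embryos were tested, which leaves out every gene at 0 in all 4 embryos of a genotype. Genotypes were compared with the quasi-likelihood test of edgeR 4.0.16, two-sided (R 4.3.3, TMM, prior count 0.125), with Benjamini-Hochberg adjustment over all genes tested and a cutoff of 0.1, as in the study, which used DESeq2. Summed CPM and per-embryo medians were compared by exact permutation tests. Stage 3 values used 5 AcfC and 6 wild-type embryos, without the improperly staged AcfC replicate 2.

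Genes were named by rule: Acf and the sex markers, the 10 largest called changes in each direction among genes that averaged 10 or more normalized counts and did not overlap, the 5 X-linked genes with the lowest adjusted p, 3 called genes per direction in quartile 1 and called list members. Others were named after their values were seen, as stated beside them. Alternatives were DESeq2 1.42.0, other scalings and filters, index set, sex and replicate terms, counts thinned to the smallest library and single embryos left out. Each embryo is a separate animal, within-genotype pairs of libraries differed by 3.41 to 16 times the sampling noise (chi-square per degree of freedom), and counting intervals cover counting error only. On simulated data the fit called 50 of 98 tested genes changed by 1 on the log2 scale and 75 of 96 changed by 2. Of its 137 calls 12 were false. Changes of that size can thus be missed among the genes not called.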

Additional observations from a re-analysis of the deposited data

Results flagged for a closer look

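In groups of 4 embryos, the gap of the most extreme embryo to its nearest neighbour was set against the range of the group, and 8 of 82 groups exceeded Dixon's 95% critical value, where chance gives about 1 in 20. AcfC embryo 5 stood high in the X-linked minus autosomal median, at 0.0877 (gap 0.849 of the range), and at 0.0891 in quartiles 2 to 4 (gap 0.919), and the genotypes remained without overlap for both measures. AcfC embryo 6 had the lowest summed CPM of quartile 4, 817582 (gap 0.865), and the highest CG1503 level, 2.08 CPM (gap 0.865). Wild-type embryo 4 had the lowest mof, 33 CPM (gap 0.974), the lowest HGTX, 2.24 CPM (gap 0.905), and the highest msl-2, 81.7 CPM of coding counts (gap 0.841). Wild-type embryo 2 was low in the median of quartile 1 minus that of quartile 4, at -0.196 (gap 0.918).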

How the results depend on the processing

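The count of 115 called genes was 355 with DESeq2, 21 at an adjusted p under 0.05, 11 with index set as a term, 50 with counts thinned to the smallest library, and 486, 416 and 404 in fits of all 12 stage 8 embryos with a sex term, with sex and index set terms and with neither. A fit of the 12 embryos as 4 groups called 154 within females, and other scalings and filters and all genes of the table gave 98 to 118. Leaving out single embryos gave 11 to 144, of which 11 to 90 were shared with the 115. Without AcfC embryos 5 and 6, chosen after seeing the data, 42 were called, the quartile 1 median was -0.167, its summed CPM difference -194, the X-linked median 0.0418 and the per-embryo X-linked minus autosomal difference 0.0643 (exact permutation p 0.0667). The X-linked median was 0.0501, 0.0508 and 0.0478 in the 3 fits of all 12 embryos. Single embryos left out gave 0.0562 to 0.0902 for the X-linked median, 0.0614 to 0.0919 for the per-embryo difference (exact permutation p 0.0286 to 0.0571), 0.108 to 0.366 for the quartile 1 median, 101 to 541 for its CPM difference and 6380 to 11700 for that of the X. Only numbers 1 and 4 occur in both genotypes and each embryo is a different animal, so the numbers do not pair the samples. With a replicate block 569 genes were called and the quartile 1 median was -0.162. Only embryos 1 and 4 of each genotype inform the genotype term of that fit. Its values are therefore not comparable with those of the other settings. The correlations of same-numbered embryos were 0.076 and 0.25. The interaction called 0 genes in edgeR and 1 in DESeq2. No called gene named by rule turned its direction under any of these settings. The causes of these shifts were not tested. Depth limits quartile 1, where means of 0.548 to 10.5 counts leave intervals of several fold.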

Other observations

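The filter left out 675 coding genes that had no count in any of the 4 wild-type females but had counts in AcfC, and 481 for which this was the other way round. Of these, 5 were counted in all 4 AcfC females and 9 in all 4 wild-type females. Among the 5, CG6675 (2L) had 5, 1, 2 and 6 counts in AcfC and 0 in each wild-type embryo. PKD, protein kinase D, had 1, 1, 1 and 3 counts in AcfC and likewise 0 in each wild-type embryo. Among the 9, Neto (X, overlapping CG34324), an auxiliary protein of glutamate receptors at the neuromuscular junction, had 0 counts in each AcfC embryo and 1, 27, 30 and 1 in wild type, so that wild-type embryos 2 and 3 carried most of it. CG17666 had 0 in each AcfC embryo and 3, 1, 9 and 5 in wild type, and CG41520 had 0 and 1, 2, 8 and 4. These genes were named after their counts were seen, and at such counts no test was made.

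CG7368 (3L, overlapping CG14137) was called with one of the largest fold changes, 4.45 on the log2 scale (edgeR adjusted p 0.0895), but stayed outside the naming rule because its genotypes overlap. It had 9.44, 25.2, 5.33 and 0.347 CPM in AcfC females and 0.4, 0.288, 0.445 and 0.497 in wild-type females. AcfC embryos 1, 4 and 5 were far above wild type and AcfC embryo 6 lay within it. The scaled ratio was 21.1-fold, with a counting interval from 9.93 to 53.7. In the male-like embryos CG7368 was 3.97 higher in AcfC on the log2 scale.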
